A study of Caenorhabditis elegans with 40 samples.

Results

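The experiment combined cleavage of DPY-26 with degradation of SDC-3 in *C. elegans*. Its 6 RNA-seq samples, all from batch 3, were taken by strain and treatment from the 40 samples of the series. In the study, structural maintenance of chromosomes complexes were inactivated singly or together in larvae, and RNA from entire animals was sequenced. The 3 *dpy-26cs sdc-3AID* samples (strain PMW821) carried a TEV protease transgene under the heat shock promoter of *hsp-16.2* (*ubsSi20*), the plant F-box protein TIR1 under the *eft-3* promoter (*xeSi376*), a TEV cleavage site in *dpy-26* (*ubs4*) and an auxin-inducible degron at the N terminus of SDC-3 (*ubs20*). The 3 TEV TIR1 control samples (strain PMW823) carried both transgenes, each with a *Cbr-unc-119* rescue gene, and neither edited locus. Animals of both strains were seeded as L1 larvae on 1 mM auxin plates, kept for 3 h at 22 °C, heat-shocked for 30 min at 34 °C and collected as L3 larvae 19 h later. Each group was 1 strain, and the strains differed at both loci, so the parts of DPY-26 cleavage and SDC-3 degradation in a difference cannot be told apart within this comparison. The design text of the series speaks of biological replicates, but the labels do not say that they were separate cultures, so p-values measure the spread between these samples.

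In *C. elegans* hermaphrodites the dosage compensation complex binds both X chromosomes and lowers their transcription, so that X-linked expression matches that of males with a single X. Its core is a condensin in which the X-specific subunit DPY-27 works with MIX-1, CAPG-1, DPY-28 and the kleisin DPY-26, which closes the ring and also serves canonical condensin I. SDC-2 and SDC-3 bring the complex to X and, with SDC-1, silence the male-promoting gene *her-1*.

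The *dpy-26cs sdc-3AID* libraries held between 23592146 and 50727668 reads, and the TEV TIR1 control libraries between 23628944 and 88427247 reads. The deepest library, control replicate 1, was deposited in 2 pairs of files with 39988798 and 48438449 reads, which were summed. Gene levels are given as CPM, the read counts scaled to a common library size. A gene was called at an adjusted p under 0.05 (edgeR's quasi-likelihood test, Benjamini-Hochberg adjustment over all genes tested), and "rose" and "fell" stand for genes called by that test. In whole animals, fewer cells of a type and less RNA per cell cannot be told apart.

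X-linked genes took up a larger part of the RNA in *dpy-26cs sdc-3AID* animals. They received 17.93%, 16.99% and 16.88% of the reads in the 3 *dpy-26cs sdc-3AID* samples, against 12.57%, 11.57% and 12.03% in the 3 TEV TIR1 control samples. The groups did not overlap. The means were 17.3% ± 0.577 in *dpy-26cs sdc-3AID* animals and 12.1% ± 0.501 in control animals (SD, n = 3 each), a difference of 5.21 percentage points and a ratio of 1.43. An exact two-sided permutation test gave p = 0.1, the smallest value that 3 against 3 samples allow. As a share of TPM, which takes transcript length into account, X-linked genes had 13.4% ± 0.853 in *dpy-26cs sdc-3AID* animals and 8.71% ± 0.588 in control animals (SD, n = 3 each). A further control of the batch, the TEV auxin control with protease but no TIR1 (strain PMW366), had 13.4%, 12.3% and 12.7% of its reads on X, also below every *dpy-26cs sdc-3AID* sample.

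**Figure D1:**
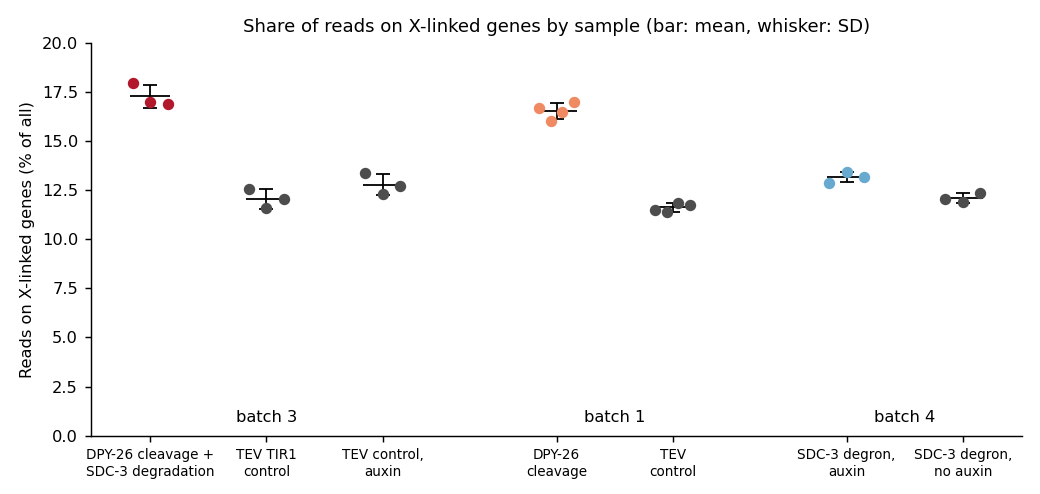
Percent of all reads on X-linked genes (vertical axis) in each sample (points) of the *dpy-26cs sdc-3AID* comparison, the TEV auxin control of the same batch, and the single depletions with their controls; bars are means and whiskers SD. The *dpy-26cs sdc-3AID* samples lie between 16.9% and 17.9%, above every sample of both batch 3 controls.

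Most X-linked genes took part in this shift, while with TMM scaling autosomal calls were about as many up as down. Of 13993 genes tested, 14.7% were called, 11.2% up and 3.46% down. On X, 1079 of 2176 genes rose (49.6%) and 4 fell (0.184%). On the autosomes, 492 of 11805 genes rose (4.17%) and 480 fell (4.07%). Of the 12 mitochondrial genes tested, 0 were called, and 0 were up or down at an unadjusted p under 0.05 by edgeR's test, where 19.1% of all genes were up and 11.6% down.

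The median X-linked gene had a log2 fold change of 0.58, a level 1.49-fold that of the control, and the quartiles of X-linked genes were 0.39 and 0.80. The log2 fold change was above 0 for 96.0% of X-linked genes and for 38.4% of autosomal genes. The autosomal median was -0.08, with -0.11 on chromosomes I and III, -0.07 on II, -0.08 on IV and -0.02 on V. Set against the mean of the controls, the X-linked median of single samples was 0.55, 0.50 and 0.51 (log2 scale) in *dpy-26cs sdc-3AID* animals, against 0.04, -0.03 and -0.02 in control animals. All 3 *dpy-26cs sdc-3AID* samples lay above all 3 controls for 72.8% of X-linked genes, beside 20.3% of all genes tested.

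**Figure D2:**
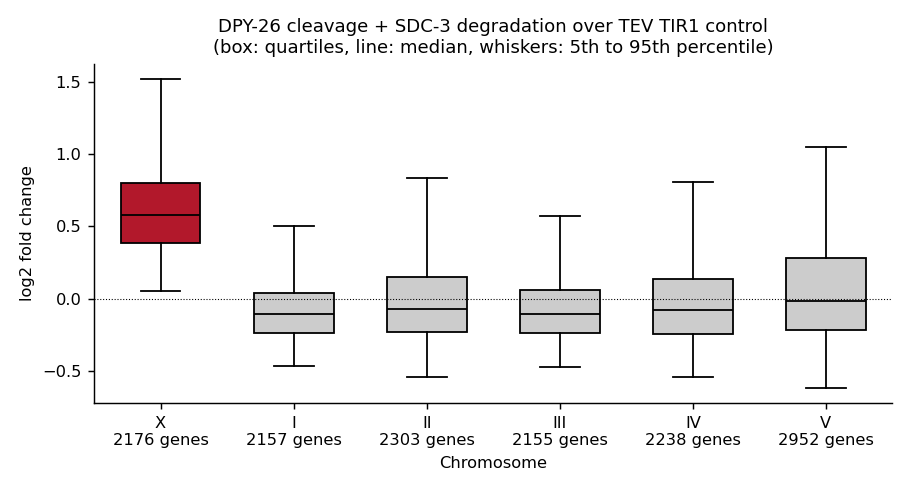
Log2 fold change of *dpy-26cs sdc-3AID* over TEV TIR1 control animals (vertical axis) for the genes tested on each chromosome; boxes span the quartiles, lines are medians and whiskers reach the outer percentiles named in the title. The X-linked median of 0.58 lies above the upper quartile of every autosome, and the autosomal medians run between -0.11 and -0.02.

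The number of calls depended on single libraries and on the control, while the shift of X changed little. Without *dpy-26cs sdc-3AID* replicate 1, 2 or 3, the X-linked genes called up were 636, 525 and 600, and without TEV TIR1 control replicate 1, 2 or 3 they were 1098, 552 and 742. In the same fits, autosomal genes called up were 249, 200 and 262 without each *dpy-26cs sdc-3AID* replicate and 472, 205 and 560 without each control replicate, and those called down were 196, 117 and 155, and 442, 143 and 351. The difference between the X-linked and the autosomal median stayed between 0.62 and 0.68 in these fits, with 0.66 when all samples were used. With scaling factors from autosomal genes alone, the autosomal calls were 630 up and 333 down, 65.4% up in place of 50.6%, and the medians were 0.64 on X and -0.02 on the autosomes. Against the TEV auxin control, 1135 X-linked genes were called up and 171 down, and 1121 autosomal genes up and 1879 down, with medians of 0.53 and -0.05.

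The X-linked shift was spread along the chromosome and over all levels of expression. In 9 bins of equal length along X, with 175 to 298 genes tested in each, the median fold lay between 1.46 and 1.58, and the share of genes called up between 46.7% and 54.1%. By mean level over the 6 samples, the median log2 fold change of X-linked genes was 0.66 in the lowest of 3 equal groups of genes, 0.58 in the middle group and 0.51 in the highest. The share called up was 29.4%, 57.4% and 62.4% in the same order, while the median standard error was 0.26, 0.14 and 0.12. Autosomal medians in these groups were 0.04, -0.08 and -0.13.

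A run of 4 short neighbouring X-linked genes on the plus strand changed far more than the chromosome as a whole. They were grouped after their values were seen. *C45B2.2* (X, 6084739 to 6085189, WBcel235) had 834, 953 and 917 CPM in *dpy-26cs sdc-3AID* samples, against 78.3, 126 and 83.5 CPM in control samples, with no overlap and a log2 fold change of 3.23 ± 0.20 (SE, edgeR adjusted p = 0.000420). *C45B2.1* (X, 6086124 to 6086567) had 24.6, 22.2 and 17.6 CPM in *dpy-26cs sdc-3AID* samples, against 0.407, 0.849 and 0.413 CPM in control samples (log2 fold change 5.34 ± 0.29, edgeR adjusted p = 0.000313). In both genes the *dpy-26cs sdc-3AID* samples stood many-fold above the highest control. *C45B2.3* (X, 6082960 to 6083412), at low levels, had 2.47, 2.14 and 2.05 CPM in *dpy-26cs sdc-3AID* samples, against 0.244, 0.106 and 0.124 CPM in control samples (3.59 ± 0.32). *C45B2.8* (X, 6087976 to 6088412) had 1.03, 1.24 and 1.298 CPM in *dpy-26cs sdc-3AID* samples, against 0.0233, 0.0354 and 0 CPM in control samples, and since its control values rest on 3 reads no fold is given. Whether the 4 genes share reads was not tested.

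Other X-linked genes with large increases encode proteins of several kinds. *coel-1*, whose product resembles the tubulin folding cofactor E, had 27.2, 16.9 and 17.7 CPM in *dpy-26cs sdc-3AID* samples, against 3.76, 2.69 and 3.795 CPM in control samples. Its groups did not overlap, and the log2 fold change was 2.59 ± 0.23 (edgeR adjusted p = 0.00137). *cyp-13B1*, a cytochrome P450 gene, had 41.1, 45.8 and 44.1 CPM in *dpy-26cs sdc-3AID* samples, against 10.5, 10.8 and 14.6 CPM in control samples (1.88 ± 0.14, edgeR adjusted p = 0.000835). *Y41G9A.10* had 24.5, 25.97 and 22.6 CPM in *dpy-26cs sdc-3AID* samples, against 4.95, 4.85 and 4.41 CPM in control samples, the 3 values of each group lying close together (2.36 ± 0.11, edgeR adjusted p = 0.000292). *F35B3.4* and *B0403.5* rose by 3.46 ± 0.32 and 2.96 ± 0.26 on the log2 scale against the TEV TIR1 control, and by 2.497 and 1.15 against the TEV auxin control.

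The astacin metalloprotease genes *nas-10* and *nas-38*, of a family that cuts extracellular matrix proteins, also rose by more than the typical X-linked gene. *nas-10* had 7.52, 5.03 and 7.33 CPM in *dpy-26cs sdc-3AID* samples, against 0.209, 0.177 and 0.248 CPM in control samples, the control values resting on 29 reads in all (log2 fold change 4.96 ± 0.26, edgeR adjusted p = 0.000313). *nas-38* had 13.99, 13.4 and 19.6 CPM in *dpy-26cs sdc-3AID* samples, against 1.19, 0.672 and 1.28 CPM in control samples (3.88 ± 0.26, edgeR adjusted p = 0.000615), with no overlap between the groups. Against the TEV auxin control, the log2 fold change of *nas-38* was 0.43 and it was not called (edgeR adjusted p = 0.0821). *R02E4.3* rose by 2.31 ± 0.38 against the TEV TIR1 control, but had a log2 fold change of -0.67 against the TEV auxin control (edgeR adjusted p = 0.118).

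The 4 X-linked genes that fell were *col-180*, *F54B11.11*, *K09C4.1* and *C18A11.4*. The cuticle collagen gene *col-180* had 43.96, 51.2 and 39.9 CPM in *dpy-26cs sdc-3AID* samples, against 114.8, 136 and 109.9 CPM in control samples (-1.42 ± 0.13, edgeR adjusted p = 0.00139). *F54B11.11* had 7.56, 8.47 and 8.25 CPM in *dpy-26cs sdc-3AID* samples, against 16.22, 15.8 and 15.1 CPM in control samples (-0.96 ± 0.11, edgeR adjusted p = 0.00288). In both, every *dpy-26cs sdc-3AID* sample lay below every control. *K09C4.1* changed by -0.48 ± 0.11 (edgeR adjusted p = 0.0224), a call lost without *dpy-26cs sdc-3AID* replicate 1, 2 or 3 (edgeR adjusted p = 0.0667, 0.0656 and 0.0618), without control replicate 2 (0.0743), and against the TEV auxin control (0.217). *C18A11.4*, below the level set for naming and named after its value was seen, had a log2 fold change of -1.401 ± 0.25 (edgeR adjusted p = 0.0108).

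**Figure D3:**
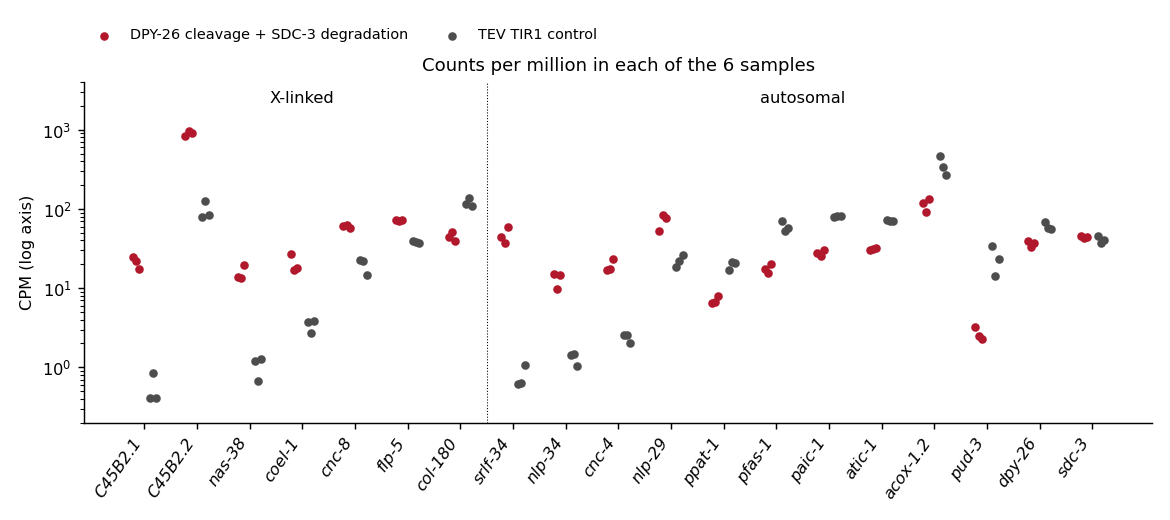
CPM (vertical axis, logarithmic) of selected X-linked genes and autosomal genes in each of the 3 *dpy-26cs sdc-3AID* samples and the 3 TEV TIR1 control samples (points). The widest gap is that of *srlf-34*, with 43.8, 37.2 and 58.9 CPM in *dpy-26cs sdc-3AID* samples and 0.617, 0.637 and 1.07 CPM in control samples.

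Among the 10 genes of the dosage compensation complex, only the mRNA of the cleaved subunit fell. *dpy-26*, on chromosome IV, had 38.9, 33.05 and 37.6 CPM in *dpy-26cs sdc-3AID* samples, against 68.2, 56.8 and 55.6 CPM in control samples. The groups did not overlap, the log2 fold change was -0.72 ± 0.11 (edgeR adjusted p = 0.00750), and *C25G4.3* is annotated over part of the same strand. *sdc-3*, on chromosome V, had 45.8, 43.3 and 44.4 CPM in *dpy-26cs sdc-3AID* samples, against 46.2, 37.3 and 40.7 CPM in control samples, with overlapping groups (0.10 ± 0.10, edgeR adjusted p = 0.537). Both depletions act on protein, so these mRNA levels are no check of cleavage or degradation, and protein was not measured in these files. *sdc-2*, an X-linked gene whose product starts complex assembly, had 40.8, 37.8 and 41.9 CPM in *dpy-26cs sdc-3AID* samples, against 30.8, 29.04 and 31.3 CPM in control samples and rose by 0.40 ± 0.09 (edgeR adjusted p = 0.0215). That call was lost without *dpy-26cs sdc-3AID* replicate 1, 2 or 3 (edgeR adjusted p = 0.0762, 0.0533 and 0.0884) and without control replicate 2 or 3 (0.0914 and 0.0508).

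The other members were not called. The X-linked *sdc-1* had a log2 fold change of 0.40 ± 0.17. The condensin subunit genes had -0.13 ± 0.13 for *dpy-27*, 0.19 ± 0.12 for *dpy-28*, -0.23 ± 0.09 for *capg-1* and -0.05 ± 0.09 for *mix-1*. *dpy-21*, which encodes the H4K20 demethylase of the complex, had -0.01 ± 0.15, and *dpy-30*, whose product also serves histone methyltransferase complexes, had 0.07 ± 0.10. The values of *dpy-21* and *mix-1* were above 0 with autosomal scaling.

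The sex determination pathway showed 0 called genes of 11 tested by edgeR's test, where *xol-1*, the male switch gene, had too few reads to be tested. All 11 are autosomal, and with 4.17% of all autosomal genes up and 4.07% down nothing is read from this count. *her-1*, the male-promoting ligand gene repressed by the SDC proteins, had 0.267, 0.434 and 0.167 CPM in *dpy-26cs sdc-3AID* samples, against 0.372, 0.212 and 0.124 CPM in control samples, with overlapping groups (0.13 ± 0.49, edgeR adjusted p = 0.887). Its receptor gene *tra-2* had -0.22 ± 0.09, and *tra-1*, the terminal transcription factor gene, had -0.24 ± 0.10 (edgeR adjusted p = 0.145). The *fem* genes, which act between them, had -0.18 ± 0.10 for *fem-1*, -0.20 ± 0.10 for *fem-2* and 0.08 ± 0.19 for *fem-3*. Of the X signal elements, which count X chromosomes in the embryo, *ceh-39* had 6.91, 6.36 and 6.57 CPM in *dpy-26cs sdc-3AID* samples, against 3.72, 3.75 and 3.38 CPM in control samples (0.87 ± 0.13, edgeR adjusted p = 0.00642). *fox-1* also rose (0.62 ± 0.16, edgeR adjusted p = 0.0371), a call that held without control replicate 1 (0.0106) and was lost when each of the other samples was left out (between 0.0757 and 0.134). *sex-1* was not called (0.15 ± 0.18, edgeR adjusted p = 0.613).

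Among autosomal genes, several for de novo purine synthesis fell. The 7 genes of this list were put together after their values were seen, and 5 of 7 fell, beside 4.07% of all autosomal genes, a count from which nothing is read. *ppat-1*, for the amidotransferase of the first committed step, had 6.40, 6.64 and 7.96 CPM in *dpy-26cs sdc-3AID* samples, against 17.1, 21.6 and 20.9 CPM in control samples (-1.51 ± 0.14, edgeR adjusted p = 0.00153). *pfas-1*, for the later FGAM synthase, had 17.4, 15.3 and 20.4 CPM in *dpy-26cs sdc-3AID* samples, against 69.8, 53.0 and 57.1 CPM in control samples (-1.76 ± 0.15, edgeR adjusted p = 0.00123). *paic-1*, for enzymes of later steps, had 27.5, 25.8 and 30.1 CPM in *dpy-26cs sdc-3AID* samples, against 79.8, 80.5 and 81.3 CPM in control samples (-1.54 ± 0.09, edgeR adjusted p = 0.000409). In each of these genes all *dpy-26cs sdc-3AID* samples lay well below all controls. *atic-1*, whose product carries out the closing reactions to IMP, had 30.5, 30.8 and 32.2 CPM in *dpy-26cs sdc-3AID* samples, against 71.7, 70.7 and 70.1 CPM in control samples (-1.18 ± 0.08, edgeR adjusted p = 0.000615).

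*adsl-1*, for adenylosuccinate lyase, changed less, by -0.39 ± 0.09 (edgeR adjusted p = 0.0260), and its call was lost without *dpy-26cs sdc-3AID* replicate 1, 2 or 3 (edgeR adjusted p = 0.0699, 0.114 and 0.0607) and without control replicate 2 (0.0805). Beyond IMP, *adss-1* towards AMP and *gmps-1* towards GMP were not called, with 0.06 ± 0.12 and -0.08 ± 0.08. The lower levels of *ppat-1*, *pfas-1*, *paic-1* and *atic-1* were also seen against the TEV auxin control, with log2 fold changes of -1.52, -2.03, -1.92 and -1.54.

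**Figure D4:**
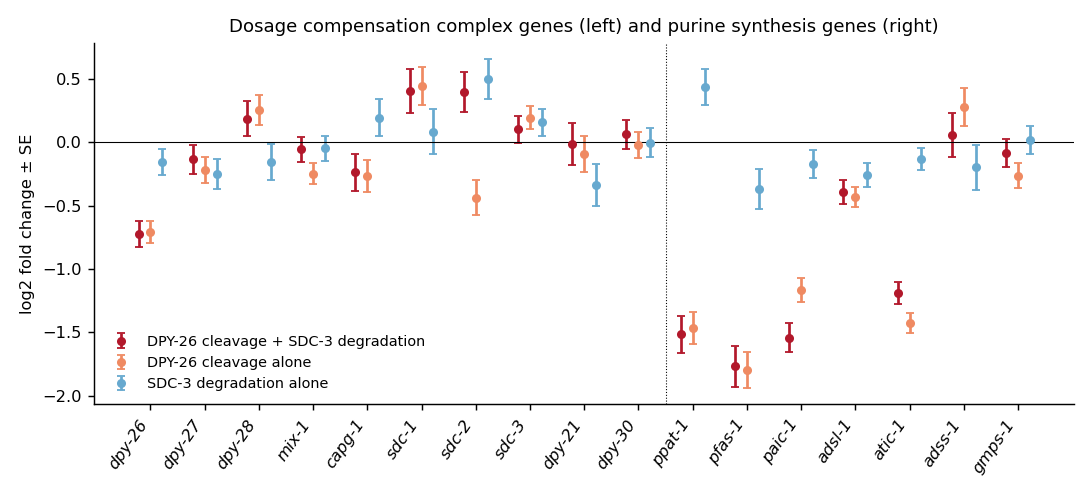
Log2 fold change ± SE (vertical axis) of the dosage compensation complex genes and the purine synthesis genes in 3 comparisons, *dpy-26cs sdc-3AID* over TEV TIR1 control, DPY-26 cleavage alone over its control, and SDC-3 degradation alone over animals without auxin, from 1 fit. *pfas-1* stands at -1.77, -1.80 and -0.37 in the 3 comparisons, and *dpy-26* at -0.73, -0.71 and -0.15.

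Genes tied to ascaroside pheromones and the *pud* genes also included large decreases. *acox-1.2*, an acyl-CoA oxidase gene of peroxisomal ascaroside side chain shortening, had 119.9, 91.1 and 133 CPM in *dpy-26cs sdc-3AID* samples, against 471, 335 and 267 CPM in control samples (-1.64 ± 0.23, edgeR adjusted p = 0.00490). Of 8 genes of that process, grouped after their values were seen, *acox-1.2* and *acox-1.4*, 2 of 7 on autosomes, fell and the X-linked *dhs-28* rose, beside 4.07% of all autosomal genes down. The call of *acox-1.4* (-0.60 ± 0.12) was lost without *dpy-26cs sdc-3AID* replicate 2 or 3 (edgeR adjusted p = 0.0673 and 0.0559), and that of *dhs-28* (0.51 ± 0.10) without *dpy-26cs sdc-3AID* replicate 2 or control replicate 2 (0.0686 and 0.0587). *cest-1.1*, a carboxylesterase gene for ascaroside decoration, had 5.86, 5.90 and 5.53 CPM in *dpy-26cs sdc-3AID* samples, against 23.4, 16.38 and 22.03 CPM in control samples (-1.84 ± 0.16, edgeR adjusted p = 0.00123).

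*pud-3* had 3.22, 2.51 and 2.303 CPM in *dpy-26cs sdc-3AID* samples, against 34.3, 14.3 and 23.5 CPM in control samples, the most negative change among the genes named here (-3.15 ± 0.32, edgeR adjusted p = 0.00209). *pud-4* had 2.95, 3.44 and 2.05 CPM in *dpy-26cs sdc-3AID* samples, against 16.53, 7.499 and 11.6 CPM in control samples (-2.07 ± 0.31, edgeR adjusted p = 0.00637). Neither gene overlapped between the groups. *pud-1.1* and *pud-2.2* also fell, with log2 fold changes of -1.65 and -2.03, but these genes have near-identical copies, so the reads of each copy are uncertain. Their calls were lost without *dpy-26cs sdc-3AID* replicate 1 or 3 for *pud-1.1* (edgeR adjusted p = 0.0560 and 0.0658) and without *dpy-26cs sdc-3AID* replicate 2 or 3 for *pud-2.2* (0.118 and 0.118).

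Antimicrobial peptide genes of the epidermis were among those that rose. Of 22 *nlp* and *cnc* genes of this kind, grouped after their values were seen, 16 were tested, 8 rose and 0 fell (edgeR), 7 of 15 on autosomes and the 1 on X, beside 4.17% of all autosomal genes up. As the genes were chosen for their values, nothing is read from this count. *cnc-4*, of the caenacin family, had 16.8, 17.4 and 23.4 CPM in *dpy-26cs sdc-3AID* samples, against 2.58, 2.58 and 2.02 CPM in control samples (2.99 ± 0.18, edgeR adjusted p = 0.000420). *nlp-34* had 14.9, 9.68 and 14.7 CPM in *dpy-26cs sdc-3AID* samples, against 1.44, 1.49 and 1.03 CPM in control samples (3.29 ± 0.23, edgeR adjusted p = 0.000629). Both were separated from the controls by a wide gap. *nlp-29*, a reporter of epidermal infection and wounding, had 52.6, 84.2 and 77.5 CPM in *dpy-26cs sdc-3AID* samples, against 18.6, 21.8 and 26.4 CPM in control samples (1.69 ± 0.20, edgeR adjusted p = 0.00339), and the X-linked *cnc-8* had 61.3, 63.1 and 57.1 CPM in *dpy-26cs sdc-3AID* samples, against 22.7, 21.9 and 14.6 CPM in control samples (1.61 ± 0.17, edgeR adjusted p = 0.00209).

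Part of this group depended on the control. Against the TEV auxin control, *cnc-4*, *nlp-34*, *nlp-29* and *cnc-8* had log2 fold changes of 1.70, 1.43, 0.96 and 1.66. *nlp-30* (1.46 ± 0.16) and *nlp-33* (1.502 ± 0.23) rose against the TEV TIR1 control but had -0.25 and -0.40 against the TEV auxin control (edgeR adjusted p = 0.585 and 0.349). *cnc-11* also rose, from few reads, and its call was lost without control replicate 2 (edgeR adjusted p = 0.0516).

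Among autosomal genes of at least 5 CPM, the largest increases were in *srlf-34*, *C42D4.3* and *C18H7.1*. *srlf-34* had 43.8, 37.2 and 58.9 CPM in *dpy-26cs sdc-3AID* samples, against 0.617, 0.637 and 1.07 CPM in control samples (5.99 ± 0.27, edgeR adjusted p = 0.000292). *C42D4.3* had 94.6, 69.8 and 110.3 CPM in *dpy-26cs sdc-3AID* samples, against 2.86, 2.16 and 6.06 CPM in control samples (4.67 ± 0.38, edgeR adjusted p = 0.00110). *C18H7.1* had 11.04, 10.8 and 10.4 CPM in *dpy-26cs sdc-3AID* samples, against 0.349, 0.106 and 1.32 CPM in control samples (4.35 ± 0.56, edgeR adjusted p = 0.00392). None of them overlapped between the groups, and against the TEV auxin control they had log2 fold changes of 4.61, 3.49 and 2.23. *grl-21*, a Hedgehog-related gene, rose by 3.15 ± 0.60, a call lost without control replicate 2 (edgeR adjusted p = 0.0503). *ptr-22*, of the Patched-related family, had 17.6, 15.5 and 12.1 CPM in *dpy-26cs sdc-3AID* samples, against 2.85, 2.51 and 2.60 CPM in control samples (2.498 ± 0.17, edgeR adjusted p = 0.000615).

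Among neuronal genes, most of those that rose were X-linked. All 13 X-linked *flp* genes tested, which encode FMRFamide-like neuropeptides, rose, with log2 fold changes between 0.59 and 1.09, beside 49.6% of all X-linked genes. Of 17 autosomal *flp* genes, 0 were called by edgeR's test. *flp-5* had 72.0, 71.5 and 72.9 CPM in *dpy-26cs sdc-3AID* samples, against 39.6, 38.2 and 37.7 CPM in control samples (0.91 ± 0.08, edgeR adjusted p = 0.00129). *flp-18* had 77.4, 85.6 and 72.3 CPM in *dpy-26cs sdc-3AID* samples, against 44.3, 47.01 and 48.4 CPM in control samples (0.75 ± 0.10, edgeR adjusted p = 0.00392). Neither overlapped between the groups. Of the *nlp* genes, 14 of 18 on X and 6 of 49 on autosomes rose, beside 49.6% and 4.17% of all genes tested there. The autosomal ones were *nlp-15*, of the neuronal list, and the epidermal antimicrobial peptide genes *nlp-25*, *nlp-29*, *nlp-30*, *nlp-33* and *nlp-34* counted above. Nothing is read about neurons from the autosomal count.

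In the list of neurons, synapses and neuropeptide processing, 15 of 25 X-linked genes rose and 10 were not called, and 1 of 79 autosomal genes rose and 1 fell. The 15 include *flp-2*, *flp-5*, *flp-8*, *flp-11*, *flp-18*, *nlp-1* and *nlp-14*, already counted with the *flp* and *nlp* genes, so the counts are not independent. Over all genes tested, 49.6% rose on X, and 4.17% rose and 4.07% fell on the autosomes. The X-linked median was 0.59 and the autosomal median -0.0016. *tdc-1*, for the tyrosine decarboxylase that makes tyramine, had 20.2, 20.6 and 20.9 CPM in *dpy-26cs sdc-3AID* samples, against 35.98, 42.5 and 34.2 CPM in control samples (-0.87 ± 0.11, edgeR adjusted p = 0.00361). Against the TEV auxin control it had -0.30. *mec-4*, a touch receptor channel subunit gene on X, averaged 12.97 CPM in *dpy-26cs sdc-3AID* samples and 7.16 CPM in control samples (0.86 ± 0.14, edgeR adjusted p = 0.00781), and *cat-1*, the vesicular monoamine transporter gene on X, averaged 10.6 CPM in *dpy-26cs sdc-3AID* samples and 6.49 CPM in control samples (0.71 ± 0.12, edgeR adjusted p = 0.00844).

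The marker lists of other tissues stand beside 49.6% of all X-linked genes called up, and 4.17% of all autosomal genes called up and 4.07% down. Of 38 intestinal genes, 6 of 8 on X rose, and of the 30 on autosomes 2 rose and 1 fell. *gpx-5*, a glutathione peroxidase gene on X, had 51.02, 41.2 and 40.99 CPM in *dpy-26cs sdc-3AID* samples, against 16.51, 14.9 and 20.2 CPM in control samples (1.37 ± 0.14, edgeR adjusted p = 0.00222). *asp-4*, an aspartyl protease gene on X, had 485, 455 and 469 CPM in *dpy-26cs sdc-3AID* samples, against 279, 294 and 297 CPM in control samples (0.70 ± 0.09, edgeR adjusted p = 0.00400). On chromosome V, the ferritin gene *ftn-1* had 8.70, 8.32 and 8.46 CPM in *dpy-26cs sdc-3AID* samples, against 14.5, 13.9 and 16.3 CPM in control samples (-0.81 ± 0.11, edgeR adjusted p = 0.00495). The groups were apart in all 3 genes.

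Of 19 pharyngeal genes, all 3 on X rose and 0 of 16 on autosomes were called by edgeR's test. *marg-1* had 120.1, 114 and 109 CPM in *dpy-26cs sdc-3AID* samples, against 53.9, 45.6 and 58.4 CPM in control samples (1.12 ± 0.11, edgeR adjusted p = 0.00200), and *phat-6* had 36.2, 42.3 and 39.99 CPM in *dpy-26cs sdc-3AID* samples, against 17.3, 22.04 and 21.8 CPM in control samples (0.96 ± 0.12, edgeR adjusted p = 0.00392). Of 43 body muscle genes, 1 of 12 on X rose and 3 of 31 on autosomes fell, and the summed level of the list ran between 42062 and 42367 CPM in *dpy-26cs sdc-3AID* samples, against 44414 to 47514 CPM in control samples. The median log2 fold change of the list was -0.16 on autosomes and 0.28 on X. In the highest of the 3 expression groups, the medians of all genes tested were -0.13 on autosomes and 0.51 on X. The chaperone gene *unc-45* was one of those that fell (-0.50 ± 0.10), a call lost without *dpy-26cs sdc-3AID* replicate 2 or 3 or control replicate 2 (edgeR adjusted p = 0.0791, 0.0655 and 0.0543).

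Of 66 germline genes, all autosomal, 0 rose and 1 fell, with summed levels of 1923 to 2023 CPM in *dpy-26cs sdc-3AID* samples, against 1988 to 2338 CPM in control samples. Of 33 epidermal and cuticle genes, 3 of 8 on X rose, and of the 25 on autosomes 1 rose and 1 fell. *nhr-25*, an X-linked nuclear receptor gene used in moulting, had 36.1, 36.1 and 35.8 CPM in *dpy-26cs sdc-3AID* samples, against 23.9, 22.4 and 22.2 CPM in control samples (0.65 ± 0.08, edgeR adjusted p = 0.00392). Against the TEV auxin control its log2 fold change was 0.10. *col-19*, an X-linked collagen gene of the adult cuticle, had 0.800, 0.559 and 0.461 CPM in *dpy-26cs sdc-3AID* samples, against 0.116, 0.0354 and 0.124 CPM in control samples, low in all samples for L3 larvae (2.63 ± 0.44, edgeR adjusted p = 0.00896). The part of tissue composition or larval age in these differences was not tested.

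Transcripts of *hsp-16.2* and *hsp-16.41* were lower than in the TEV TIR1 control and higher than in the TEV auxin control. *hsp-16.2*, whose promoter drives the protease transgene, had 163, 198 and 250.1 CPM in *dpy-26cs sdc-3AID* samples, against 319, 680.4 and 495 CPM in control samples (-1.29 ± 0.27, edgeR adjusted p = 0.0205). Its call was lost without *dpy-26cs sdc-3AID* replicate 1 or 2 or control replicate 2 (edgeR adjusted p = 0.0626, 0.0704 and 0.0523), and against the TEV auxin control its log2 fold change was 2.37 (edgeR adjusted p = 0.000209). *hsp-16.41* likewise had -1.46 ± 0.26 against the TEV TIR1 control and 2.27 against the TEV auxin control. *hsp-16.48* was not called, with -0.41 ± 0.26 against the TEV TIR1 control (edgeR adjusted p = 0.322). The *hsp-16* genes are alike in sequence, and reads may be shared between copies. *hsp-43*, an X-linked small heat shock protein gene, had 203, 179 and 149.6 CPM in *dpy-26cs sdc-3AID* samples, against 90.6, 101 and 98.5 CPM in control samples (0.87 ± 0.13, edgeR adjusted p = 0.00561).

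Of 11 genes of the unfolded protein response and mitochondrial stress, 3 of 4 X-linked genes rose and 2 of 7 autosomal genes fell, beside 49.6% and 4.07% of all genes there. *dve-1*, for a regulator of the mitochondrial response, had 54.7, 51.6 and 56.0 CPM in *dpy-26cs sdc-3AID* samples, against 31.9, 26.7 and 37.6 CPM in control samples (0.76 ± 0.13, edgeR adjusted p = 0.00965). *pek-1*, for the PERK kinase of the endoplasmic reticulum, had 180.1, 148 and 151 CPM in *dpy-26cs sdc-3AID* samples, against 98.6, 94.2 and 110.3 CPM in control samples (0.66 ± 0.11, edgeR adjusted p = 0.00988). *hsp-4*, the BiP chaperone gene on chromosome II, fell (-0.71 ± 0.13), a call lost without *dpy-26cs sdc-3AID* replicate 2 or 3 (edgeR adjusted p = 0.0526 and 0.0625). *hsp-6*, the mitochondrial HSP70 gene on chromosome V, also fell (-0.46 ± 0.11). Its call held without control replicate 3 (edgeR adjusted p = 0.0439) and was lost when each of the other samples was left out (between 0.0621 and 0.131), and against the TEV auxin control its log2 fold change was 0.23. Of 15 DNA damage and apoptosis genes and 4 further condensin subunit genes, all autosomal, 0 were called by edgeR's test. With 4.17% of all autosomal genes up and 4.07% down, nothing is read from these counts.

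The single depletions of the series allow the combination to be set beside its parts. DPY-26 cleavage alone (strain PMW382, no auxin) had been compared with the TEV control (strain PMW366) in batch 1, with 4 samples each. SDC-3 degradation alone was the degron strain PMW822 with 1 mM auxin against the same strain without auxin in batch 4, with 3 samples each. No samples are shared between the 3 comparisons, but each has its own batch and its own kind of control. A difference between comparisons cannot be told apart from a difference between batches or controls.

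By the share of reads, the X-linked shift of the combination was close to that of DPY-26 cleavage alone and larger than that of SDC-3 degradation alone. The X share was 16.53% ± 0.414 after DPY-26 cleavage alone and 11.6% ± 0.210 in its control (SD, n = 4 each, exact permutation p = 0.0286), and 13.2% ± 0.269 after SDC-3 degradation and 12.1% ± 0.247 without auxin (SD, n = 3 each, exact permutation p = 0.1). The log2 ratio of X-linked to autosomal reads was higher than in the matching control by 0.61 ± 0.05 (SE) in *dpy-26cs sdc-3AID* animals, by 0.59 ± 0.03 after DPY-26 cleavage alone and by 0.15 ± 0.02 after SDC-3 degradation alone. The difference was 0.02 ± 0.05 between the combination and DPY-26 cleavage alone, within its error, and 0.46 ± 0.05 between the combination and SDC-3 degradation alone (SE). By the share of TPM, the X-linked shift was 4.73 percentage points in the combination (ratio 1.54). It was 3.40 points (ratio 1.49) after DPY-26 cleavage alone and 1.03 points (ratio 1.12) after SDC-3 degradation alone.

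In 1 fit of the 20 samples, 11 of 13955 genes (0.0788%) differed in their change between the combination and DPY-26 cleavage alone, 5 higher and 6 lower, and 0 of them were X-linked by edgeR's test. DESeq2 called 41 higher and 32 lower. At an unadjusted p under 0.05, 102 X-linked genes were higher and 67 lower (edgeR), beside 3.75% and 2.72% of all genes. Against SDC-3 degradation alone, 836 genes (5.99%) had a higher change in the combination and 306 (2.19%) a lower one, of which 410 and 9 were X-linked. The median difference in the log2 fold change of X-linked genes was -0.01 from DPY-26 cleavage alone and 0.42 from SDC-3 degradation alone.

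Of the 1078 X-linked genes called up in the combination and tested in both, 895 (83.0%) were also called up after DPY-26 cleavage alone, which is 60.3% of the 1484 called there. Of the 2155 X-linked genes tested in both, 68.9% were called up after DPY-26 cleavage alone. Over all genes, DPY-26 cleavage alone had 15.5% called up and 11.9% called down. On the autosomes, 213 genes were called up in both, 44.1% of those of the combination and 30.7% of those of DPY-26 cleavage alone. Those called down in both were 232, or 48.6% and 13.9%. Of the 11581 autosomal genes tested in both, 5.99% were called up and 14.4% down after DPY-26 cleavage alone. Gene by gene, the log2 fold changes of the combination and of DPY-26 cleavage alone had a Pearson correlation of 0.61 over 2168 X-linked genes and 0.54 over 11775 autosomal genes. With SDC-3 degradation alone it was 0.11 on both. The Spearman correlations, in the order X-linked and autosomal, were 0.55 and 0.53 with DPY-26 cleavage alone. With SDC-3 degradation alone they were 0.22 and 0.21. These correlations run over genes that share libraries, so the genes do not count as replicates.

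**Figure D5:**
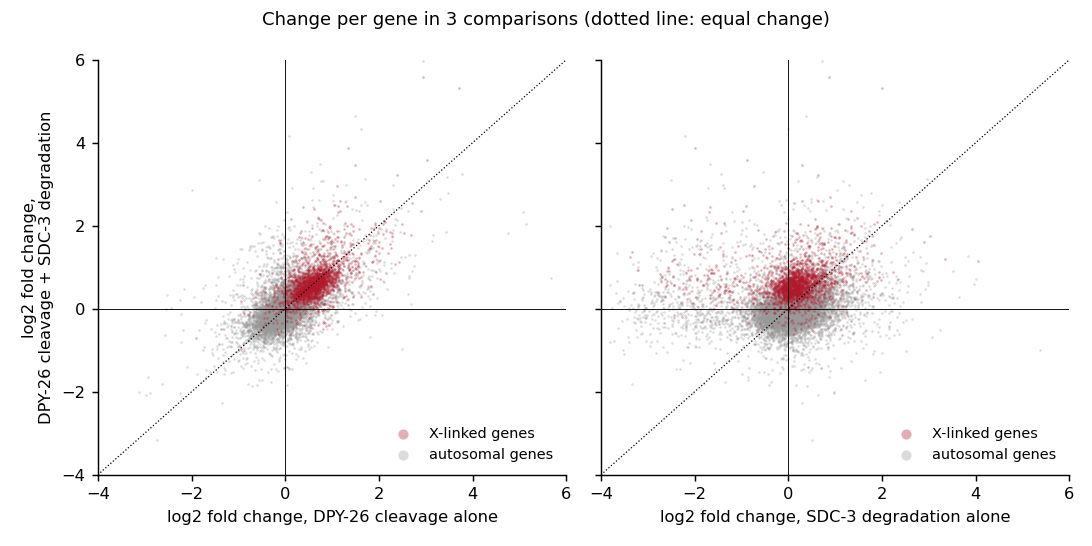
Log2 fold change of each gene in *dpy-26cs sdc-3AID* over TEV TIR1 control animals (vertical axis) against that after DPY-26 cleavage alone and after SDC-3 degradation alone (horizontal axes), X-linked and autosomal genes in separate colours, with 2 and 7 genes outside the axes. X-linked genes gather around the dotted line of equal change in the DPY-26 panel, with medians of 0.57 in the combination and 0.59 after DPY-26 cleavage alone, and lie above it in the SDC-3 panel, where the median is 0.15.

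In the same fit, the order of the 3 comparisons varied between genes. *C45B2.1* had log2 fold changes of 5.32 in the combination, 3.70 after DPY-26 cleavage alone and 2.004 after SDC-3 degradation alone. *ppat-1* had -1.51, -1.47 and 0.43, and *paic-1* had -1.54, -1.16 and -0.17. *acox-1.2* had -1.64, -1.68 and -0.85. For *sdc-2*, the values were 0.40, -0.44 and 0.50. *cnc-4* had 2.98 in the combination, 1.304 after DPY-26 cleavage alone and -1.39 after SDC-3 degradation alone, and *nlp-34* had 3.28, 0.55 and -0.53, neither differing between the combination and DPY-26 cleavage alone beyond the adjusted threshold (edgeR adjusted p = 0.325 and 0.0655).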

How the data were processed

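Synchronised larvae were processed to Trizol RNA and stranded mRNA libraries by the submitters, whose processing notes name cutadapt 2.5, STAR 2.7.9a and Salmon 1.5.2. The transcriptome release is not given in the sources used here. For each lane, the authors deposited estimated counts per transcript made by Salmon, with no scaling between samples. The authors also deposited TPM values, scaled by Salmon to transcript length and to the total of each lane. Estimated counts were summed over lanes and over transcripts to genes with the Ensembl release 115 WBcel235 annotation and rounded. Of 42938 transcripts, 30905 matched by transcript name, 11273 by isoform name and 734 by sequence name, giving 19934 genes, and 26 matched no gene (0.00191% to 0.00452% of reads per sample, left out). Salmon divides reads between like transcripts, so near-identical genes are uncertain.

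Genes with at least 10 reads in 3 of the 6 samples were tested with edgeR 4.0.16 (glmQLFit, glmQLFTest, TMM scaling) in R 4.3.3, with Benjamini-Hochberg adjustment over all genes, and called at an adjusted p under 0.05. Differences between comparisons were tested as differences of log2 fold changes in 1 fit of 20 samples, for genes with 10 reads in 10 of them. Shares of reads were compared by exact permutation (Python 3.11.15, scipy 1.17.1). Samples were grouped by the labels, and 17 of the 40 samples were not used. The code was tested on simulated data, with 50 of 13993 genes changed at each size. There, 2%, 62%, 82% and 98% were called at log2 changes of 0.5, 1, 2 and 3. A shift of many genes, as on X, was not simulated. A gene that was not called is not shown to be unchanged.

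The text names the members of the dosage compensation and sex determination lists, the genes of largest change among those called with at least 5 CPM and no overlap between groups (8 X-linked up, 8 autosomal up, 8 autosomal down and 4 X-linked down), the called genes of smallest p in other lists and families, and 6 genes of smallest p for each difference between comparisons, apart from genes said to be chosen after their values were seen. The members and lists were chosen with earlier results of these data known. Alternatives were DESeq2 1.42.0, limma-voom 3.58.1, scaling from autosomal genes or library totals, no count filter, a replicate block, all 9 batch 3 samples in the fit, the TEV auxin control, single pairs of files of control replicate 1, and leaving out each sample.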

Additional observations from a re-analysis of the deposited data

Results flagged for a closer look

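The genes named here changed differently in the combination than in a single depletion, by a test of the difference itself (edgeR, Benjamini-Hochberg adjustment over 13955 genes). All differences in the next sentences are differences of log2 fold changes. Their batches and their controls differ, so that batch, control and depletion cannot be told apart.

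Set against DPY-26 cleavage alone, the differences were -4.92 for *srw-85*, -3.47 for *scl-6*, -1.73 for *unc-119*, -1.87 for *scl-3*, 1.31 for *ltah-1.2* and 2.23 for *scb-1*. *scl-6*, *scl-3* and *scb-1* turned sign against the TEV auxin control, of the same strain (PMW366) as the TEV control. There the combination had log2 fold changes of 2.82, 3.14 and -1.86. Against the TEV TIR1 control it had -0.97, -0.14 and 0.29, and DPY-26 cleavage alone had 2.499, 1.73 and -1.94. *srw-85*, *unc-119* and *ltah-1.2* were not among the genes that turned sign. The part of the control strain in these differences was not tested. *srw-85* had 53.1, 45.3 and 34.8 CPM in *dpy-26cs sdc-3AID* samples, against 25.5, 25.7 and 27.9 CPM in TEV TIR1 control samples. After DPY-26 cleavage alone it had 51.6, 67.7, 58.8 and 51.6 CPM, against 1.105, 1.0005, 1.62 and 0.738 CPM in the TEV control. Every TEV TIR1 control value lay above every value of the TEV control. *unc-119*, a rescue copy of which from another species came with each transgene, had 15.1, 14.5 and 13.7 CPM in *dpy-26cs sdc-3AID* samples, against 13.9, 14.2 and 13.04 CPM in TEV TIR1 control samples, and 8.51, 8.39, 9.79 and 10.2 CPM after DPY-26 cleavage alone, against 2.86, 2.51, 2.77 and 2.42 CPM in the TEV control. The paper lists the TEV control strain PMW366 with the *unc-119(ed3)* allele. The part of strain genotype in these *unc-119* values was not tested.

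Set against SDC-3 degradation alone, the differences were -1.95 for *ppat-1*, -1.37 for *paic-1*, -1.05 for *atic-1*, -2.52 for *gst-35*, -2.89 for *pgp-8* and 0.92 for *ptp-4A2*. *pgp-8*, a transporter gene on X, rose in the combination (1.15) and had 4.04 after auxin was added to the degron strain, a comparison of auxin with none.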

How the results depend on the processing

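In every alternative run, X-linked genes called up outnumbered X-linked genes called down, and the X-linked median lay above the autosomal one. Leaving out each sample in turn gave 525 to 1098 X-linked genes up and 3 to 6 down, 200 to 560 autosomal genes up and 117 to 442 down, medians of 0.52 to 0.61 on X and -0.097 to -0.065 on the autosomes, a difference of 0.62 to 0.68, and 4.88 to 5.47 percentage points in the X share. DESeq2 called 8 X-linked and 806 autosomal genes down, with an autosomal median of -0.094, and for the differences from the single depletions 41 higher and 32 lower (DPY-26) and 1262 higher (SDC-3). Scaling from autosomal genes gave medians of 0.64 and -0.019, and library totals alone 0.65 and -0.0057 with 278 autosomal genes down. The TEV auxin control gave 171 X-linked genes down, 1121 autosomal genes up and 1879 down, medians of 0.53 and -0.055, a difference of 0.58, and 4.48 percentage points in the X share. The cause of these changes was not tested.

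Whether replicate numbers pair the samples was not settled, and the main fit had no replicate term. Deviations of same-numbered samples correlated at 0.57, 0.33 and 0.071. Those of differently numbered samples correlated between -0.58 and 0.34, the highest being *dpy-26cs sdc-3AID* replicate 2 with control replicate 3. With a replicate block, 1484 X-linked genes were called up and 13 down, 937 autosomal genes up and 1521 down, and 10 and 472 genes were lower in the differences from DPY-26 and SDC-3 depletion alone.

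Among the called genes named by the rule or its lists, 110 had 1 direction in every alternative. Log2 fold changes that turned sign were, against the TEV auxin control, 0.043 for *dpy-21*, 0.070 for *mix-1*, 0.34 for *tra-1*, 0.17 for *gmps-1*, -0.25 for *nlp-30*, -0.40 for *nlp-33*, -1.52 for *cnc-3*, -0.67 for *R02E4.3*, 2.27 for *hsp-16.41*, 2.37 for *hsp-16.2*, 0.23 for *hsp-6*, -3.17 for *wrt-8*, -1.23 for *grd-14*, 2.82 for *scl-6*, -1.86 for *scb-1* and 3.14 for *scl-3*. They were 0.047 for *dpy-21*, 0.0099 for *mix-1* and 0.040 for *maoc-1* with autosomal scaling, 0.064 for *dpy-21*, 0.021 for *mix-1*, 0.0077 for *fog-3* and 0.046 for *maoc-1* with library totals, 0.0052 for *dpy-21* and -0.0077 for *fog-1* with limma-voom, and -0.0023 for *fog-1* and 0.0051 for *maoc-1* with the first pair of files of control replicate 1. Leaving out samples gave ranges across 0, -0.040 to 0.16 for *adss-1*, -0.072 to 0.38 for *cnc-3*, -0.13 to 0.15 for *dpy-21*, -0.022 to 0.16 for *fem-3*, -0.14 to 0.11 for *fog-1*, -0.19 to 0.080 for *fog-3*, -0.097 to 0.35 for *her-1*, -0.12 to 0.11 for *maoc-1* and -0.29 to 0.030 for *scl-3*. Between 11 and 34 of the calls of named genes were lost when 1 sample was left out. Estimates were least precise in the lowest of the 3 expression groups, where the median standard error on X was 0.26. The part of depth in this was not tested.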

Other observations

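Some gene families changed on the autosomes as well as on X. Of 66 cytochrome P450 (*cyp*) genes tested, 3 of 5 on X rose, and of the 61 on autosomes 13 rose and 1 fell. Of 63 UDP-glucuronosyltransferase (*ugt*) genes, 3 of 4 on X rose, and of the 59 on autosomes 11 rose and 3 fell. Both were among 25 families counted. Over all genes tested, 49.6% were called up on X, and 4.17% up and 4.07% down on the autosomes. *cyp-13A5*, on chromosome II, had 26.8, 28.3 and 26.7 CPM in *dpy-26cs sdc-3AID* samples, against 11.1, 12.03 and 13.7 CPM in control samples (1.15 ± 0.11, edgeR adjusted p = 0.00155). *ugt-9*, on chromosome V, had 34.8, 31.2 and 32.03 CPM in *dpy-26cs sdc-3AID* samples, against 15.6, 18.9 and 17.8 CPM in control samples (0.91 ± 0.11, edgeR adjusted p = 0.00327). The glutathione S-transferase gene *gst-10* went the other way, with 35.03, 47.1 and 43.3 CPM in *dpy-26cs sdc-3AID* samples, against 103.8, 139 and 114 CPM in control samples (-1.51 ± 0.15, edgeR adjusted p = 0.00200). Nuclear hormone receptor (*nhr*) genes were near the shares over all genes, with 12 of 20 on X up, and 8 of 192 on autosomes up and 4 down, beside 49.6% of all X-linked genes up and 4.17% and 4.07% of all autosomal genes up and down. *nhr-114*, on chromosome V, had 65.2, 64.9 and 70.7 CPM in *dpy-26cs sdc-3AID* samples, against 136, 164 and 111.9 CPM in control samples (-1.04 ± 0.14, edgeR adjusted p = 0.00476). Of 46 *rpl* and 31 *rps* ribosomal protein genes, 0 were called by edgeR's test, with a median log2 fold change of -0.19 in each family.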
